A study of Homo sapiens with 8 samples.

Results

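The peaks described here are the 1308 sites at which the AP-1 factor JUND was called by chromatin immunoprecipitation and sequencing (ChIP-seq) in DU145 cells, an established human prostate cancer line. All peaks of the deposited JUND list were taken, with no selection, out of 24078 peaks in the 7 lists of the series. Each was set against the 9306 peaks of the DU145 ETS1 list marked R2, by an overlap of at least 1 bp and by the distance between peak centres. The series covers 8 samples, namely immunoprecipitations of ETS1, ELF1, ELK4, GABPA and JUND in DU145, of ETS1 in the pancreatic cancer line PANC1, and an input of each line, and its title concerns ETS1 as an effector of RAS/ERK signalling. The labels give no treatment for JUND or ETS1, so both are DU145 cells in growth medium with serum, with puromycin only where cells had been selected, and each factor was precipitated with a commercial antibody against it. There was 1 sample per factor and no replicate sample, so no difference below could be set against a spread between cultures, and no test was made. The 95% Clopper-Pearson intervals cover the counting of peaks only, and neighbouring peaks are not independent. The lists hold no reads or sequence, so the depth behind each list is unknown and the identity of the precipitated factor was not checked here.

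JUND is a member of the JUN family of leucine zipper proteins. It binds DNA as a dimer with another JUN protein or with a FOS protein, and these dimers are the AP-1 factors. ETS1 binds as a single molecule to sites around a GGAA core. ETS and AP-1 sites lie next to each other in enhancers of genes for proteases, cytokines and cell migration, and such joined elements respond to RAS/ERK signalling, which phosphorylates ETS1 and raises the level of FOS family proteins. GABPA, in contrast, is an ETS factor best known from promoters of broadly expressed genes.

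On a log10 axis, the distances from JUND to ETS1 formed 2 humps, one of peaks lying directly on an ETS1 peak and one of peaks many kilobases away. Of 1308 JUND peaks, 409 overlapped an ETS1 peak (31.3%, 28.8 to 33.9%), and 899 did not (68.7%, 66.1 to 71.2%). Among the latter, 43 had their centre under 1 kb from an ETS1 centre (3.29% of all), 191 lay at 1 to 10 kb (14.6%), 391 at 10 to 100 kb (29.9%) and 274 farther than 100 kb (20.9%). The class between contact and 1 kb was the smallest, but the classes span unequal lengths. Overlapping intervals are also taken out of this class, so its small size is partly built in and shows no gap in the distances. Over all peaks the median distance between centres was 11.1 kb (95% order-statistic interval 7.41 to 15.02 kb). This pooled value lies in the lower part of the farther hump, where the peaks without overlap had a first quartile of 8.69 kb. It describes neither hump well. The median was 133 bp (119 to 153 bp) for overlapping peaks and 40.2 kb (32.3 to 45.2 kb) for the others. The pooled median moved to 18.5 kb when only the 8224 ETS1 peaks also present in the other ETS1 list were used, and to 6.56 kb for the wider JUND peaks.

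**Figure D1:**
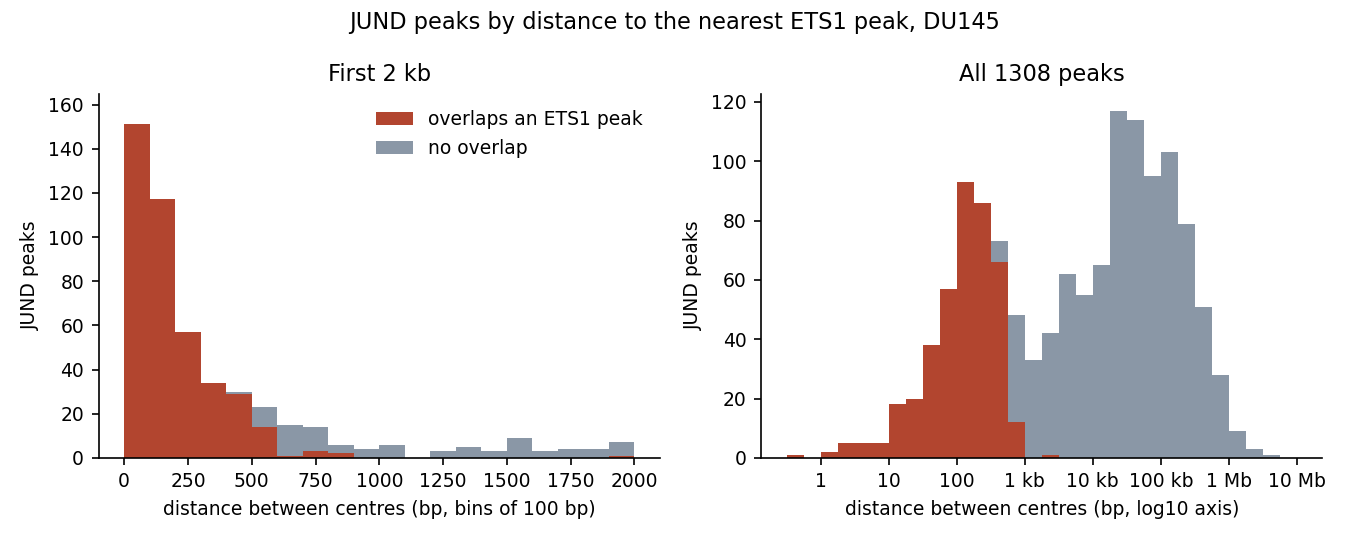
JUND peaks by the distance in bp from their centre to the nearest ETS1 centre, in bins of 100 bp up to 2 kb (left) and over all 1308 peaks on a log10 axis (right), with peaks that overlap ETS1 in red and the rest in grey. The first bin holds 151 peaks and the second 117, and on the right the overlapping peaks form a hump near 100 bp that is separate from the grey one at 10 to 100 kb.

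Where JUND met ETS1, the centres were close. Overlap itself limits the distance between centres by the widths of the 2 intervals, so this closeness is partly built in. The number of JUND peaks in successive bins of 100 bp was 151, 117, 57, 34 and 30 up to 500 bp, and no bin from 800 to 2000 bp held more than 9. Centres lay within 50 bp for 83 JUND peaks (6.35%) and within 200 bp for 268 (20.5%, 18.3 to 22.8%). The ETS1 centre was inside the JUND peak in 370 of the 409 overlaps (90.5%, 87.2 to 93.1%), and the whole ETS1 window was inside it in 186 (45.5%). On the chromosome, the ETS1 centre was on the side of higher coordinates in 206 cases and of lower coordinates in 203. Overlap was nearly always with a single window, since 408 JUND peaks met 1 ETS1 peak and 1 met 2. No ETS1 peak met 2 JUND peaks.

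Seen from ETS1, contact with JUND was rare. Of 9306 ETS1 peaks, 410 overlapped a JUND peak (4.41%, 3.998 to 4.84%), and 817 had a JUND centre within 10 kb (8.78%). The median distance from an ETS1 centre to the nearest JUND centre was 399 kb, over the 9298 ETS1 peaks on chromosomes that hold a JUND peak. This value and the 11.1 kb in the other direction differ with the lengths of the lists, 1308 and 9306 peaks.

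The order of lines in the files was used as a description, since no source says what it stands for. ETS1 peaks in the first lines met JUND most often. In the first of 10 equal groups of ETS1 lines, 81 of 931 peaks overlapped JUND (8.70%, 6.97 to 10.7%). From the second group to the tenth the share lay between 3.22% and 4.51%, with no steady trend. Within the first group it was 8% (3.52 to 15.2%) over lines 1 to 100, 12% (7.84 to 17.3%) over lines 101 to 300 and 7.77% (5.80 to 10.1%) over lines 301 to 931. GABPA followed another course along the same ETS1 lines, from 50.1% and 51.1% in the first and second groups, through 26.1% at lines 3724 to 4653, to 2.26% in the tenth. JUND contact was thus raised at the head of the ETS1 list and level after it, while GABPA contact declined along most of the list.

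On the JUND side, earlier lines and wider peaks were nearer to ETS1. Of the first 131 JUND lines, 59 overlapped ETS1 (45.0%, 36.3 to 54.0%), against 27 of the last 130 (20.8%, 14.2 to 28.8%). The groups between them did not decline evenly, with 19.8% in the eighth and 29.8% in the ninth. JUND peaks over 100 kb from ETS1 made up 12.2% of the first group and between 15.3% and 26.7% of the others. The median line was 542 (464 to 599) for peaks with ETS1 and 708 (663 to 748) for peaks without, a difference of -166 lines (-284 to -64, bounds taken from the intervals of both medians). Bounds included 0 under 3 of 4 alternatives, at -120 lines (-230 to 17) with centres within 200 bp, -97 (-201 to 15) with the other ETS1 list and -87.5 (-194 to 9) among JUND peaks of at most 1000 bp. Over all peaks the rank correlation of line with distance was weak (Spearman's rho 0.089, across 1308 peaks of 1 library).

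**Figure D2:**
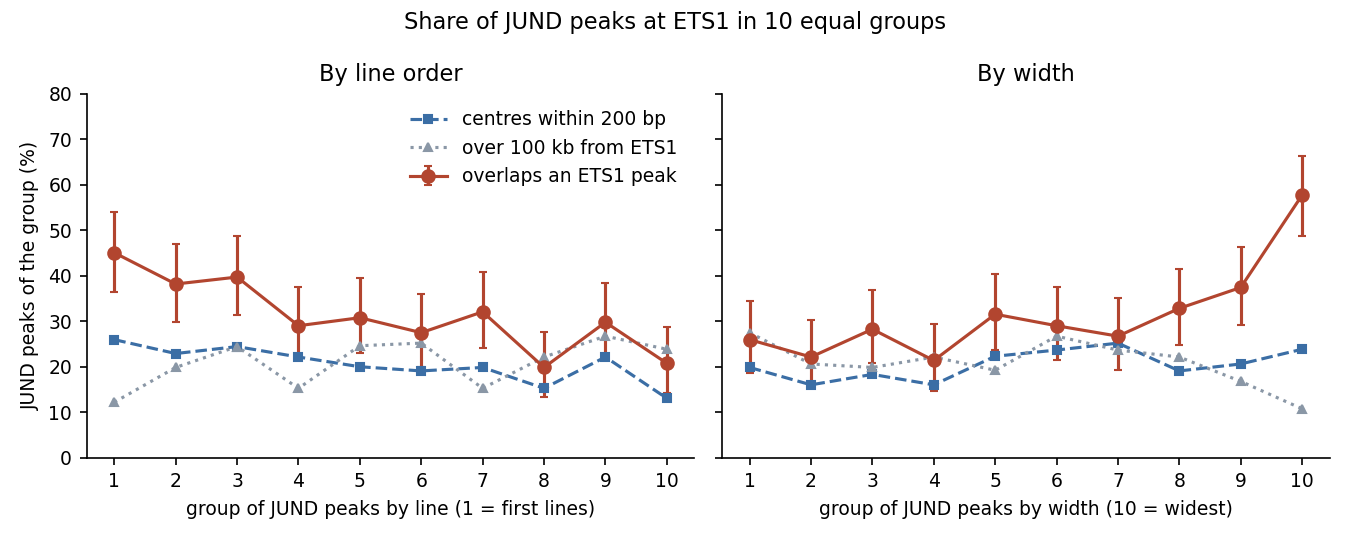
Share of JUND peaks in 10 equal groups by line (left, 1 is the head of the list) and by width (right, 10 is the widest) that overlap ETS1 (red, bars are 95% Clopper-Pearson intervals), that have centres within 200 bp of an ETS1 centre (blue) or that lie over 100 kb away (grey), in percent. The red series ends at 57.7% in the widest group, where the blue one stands at 23.8%.

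JUND intervals ranged from 419 to 3796 bp in width, with a median of 696.5 bp, whereas 98.0% of the ETS1 windows measured 470 to 501 bp. Peaks with ETS1 had a median width of 761 bp (731 to 800 bp) and peaks without it 670 bp (652 to 692 bp), a difference of 91 bp (39 to 148 bp, with bounds taken in the same way). It was 50 bp (-24 to 95 bp) when contact was set by centres within 200 bp, and 40.5 bp (-6 to 90 bp) among JUND peaks of at most 1000 bp, both with bounds that include 0. Beyond 1 kb the median width hardly varied with distance, at 683 bp for 1 to 10 kb, 670 bp for 10 to 100 kb and 666.5 bp farther away. The share of peaks over 1000 bp did vary. It was 13.6% at 1 to 10 kb (26 of 191), 6.65% at 10 to 100 kb (26 of 391) and 5.84% farther away (16 of 274). The 43 peaks that missed an ETS1 window by less than 1 kb between centres were the narrowest, at a median of 568 bp (508 to 664 bp). Their median gap to the ETS1 interval was 103 bp, and a wider JUND interval would have reached many of those windows, so membership of this class depends on width by construction.

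**Figure D3:**
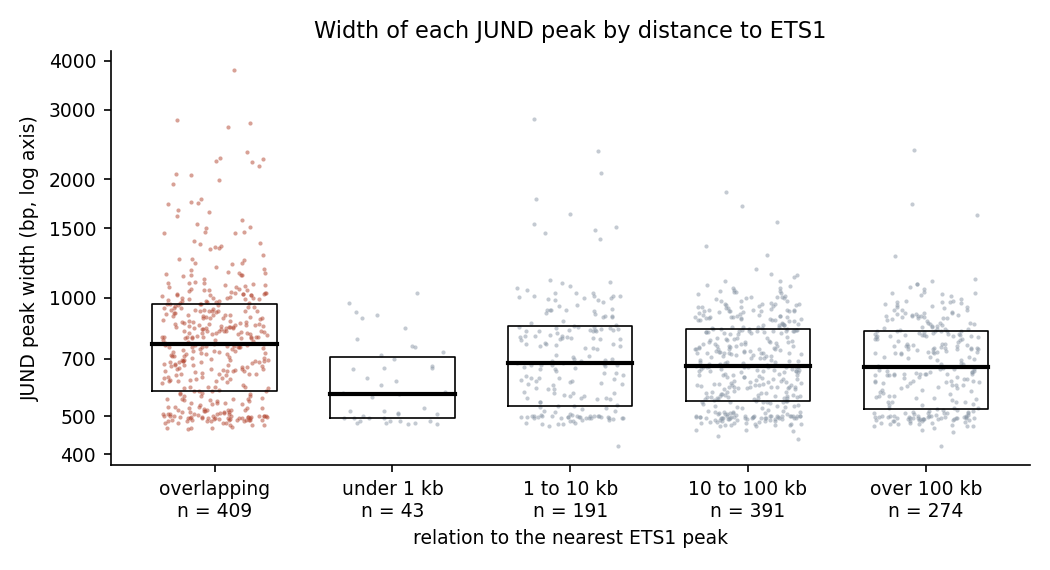
Width in bp (log axis) of each JUND peak, 1 point per peak, by its relation to the nearest ETS1 peak, with boxes at the quartiles and a thick line at the median. The overlapping class has the highest median, 761 bp, and holds most of the points above 1000 bp, 86 of 155.

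The widest JUND peaks gave much of this difference. Of 155 peaks over 1000 bp, 86 overlapped ETS1 (55.5%, 47.3 to 63.5%), against 323 of the 1153 others (28.01%, 25.4 to 30.7%). A long interval meets a second list more easily, and by centres within 200 bp the shares were 23.9% (17.4 to 31.4%) and 20.03% (17.8 to 22.5%), with overlapping intervals. The centre rule leans the other way, since among overlapping peaks the centre distance rose with JUND width (rho 0.25). Among peaks that did not overlap ETS1, 16 of 69 over 1000 bp (23.2%, 13.9 to 34.9%) and 258 of 830 of the rest (31.1%, 27.9 to 34.4%) lay more than 100 kb from it, again with overlapping intervals. With every JUND peak replaced by a window of 500 bp around its centre, 29.7% (27.3 to 32.3%) overlapped ETS1, close to the 31.3% of the intervals as deposited.

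Line and width could be separated only in part, because early JUND lines are wide (rho -0.73). In each of 5 equal groups by line, the median width was higher with ETS1 than without, by 65, 17.5, 87, 13.5 and 8 bp from the head of the list to its end. In each of 5 equal groups by width, the median line with ETS1 minus that without was -25, 41, -7.5, 15 and 33 lines, from narrow to wide. Width thus kept its sign within line groups, and the line difference had no common sign within width groups. Contact here was overlap, which a wider interval meets more easily, so the sign of the width difference is partly built in. The same split by centre distance was not made.

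The other lists of the series were read at the same JUND peaks. Those of DU145 ETS1 share a sample, and the list other than R2 holds longer intervals. What the mark R2 stands for is not stated, so they were not treated as replicates of each other. Of the 409 JUND peaks on an ETS1 window of R2, 342 (83.6%, 79.7 to 87.1%) also overlapped this longer list. So did 34 of the 43 peaks under 1 kb (79.1%, 64.0 to 89.96%), 52 of 191 at 1 to 10 kb (27.2%), 16 of 391 at 10 to 100 kb (4.09%) and 9 of 274 beyond (3.28%). In all, 342 JUND peaks met both ETS1 lists, 67 met R2 alone, 111 met the longer list alone and 788 (60.2%, 57.5 to 62.9%) met neither. Most near misses of R2 thus overlapped a longer ETS1 interval by at least 1 bp.

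Contact with the other ETS factors and with PANC1 ETS1 was concentrated at the JUND peaks that carry ETS1. GABPA was at 55 of 409 JUND peaks with ETS1 (13.4%, 10.3 to 17.1%) and at 5 of 899 without (0.556%, 0.181 to 1.29%). ELK4, the partner of serum response factor, was at 17 (4.16%) and 3 (0.334%), and ELF1 at 7 (1.71%) and 3 (0.334%). ETS1 of PANC1 cells was at 48 (11.7%, 8.78 to 15.3%) and 4 (0.445%, 0.121 to 1.14%), and all 4 of these lay at 1 to 10 kb from a DU145 ETS1 centre. Of 665 JUND peaks farther than 10 kb, 636 met none of the other 5 lists (95.6%, 93.8 to 97.1%). Over all 1308 JUND peaks it was 846 (64.7%), and over the 899 without ETS1 780 (86.8%). The other DU145 ETS1 list is 1 of these 5 lists, which ties this share to the distance from ETS1. Wherever they lie, most peaks of these lists overlap a DU145 ETS1 window, from 70.7% of PANC1 ETS1 and 73.3% of ELK4 peaks to 87.1% of ELF1 and 92.2% of GABPA peaks, so a split by ETS1 is built into the lists.

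**Figure D4:**
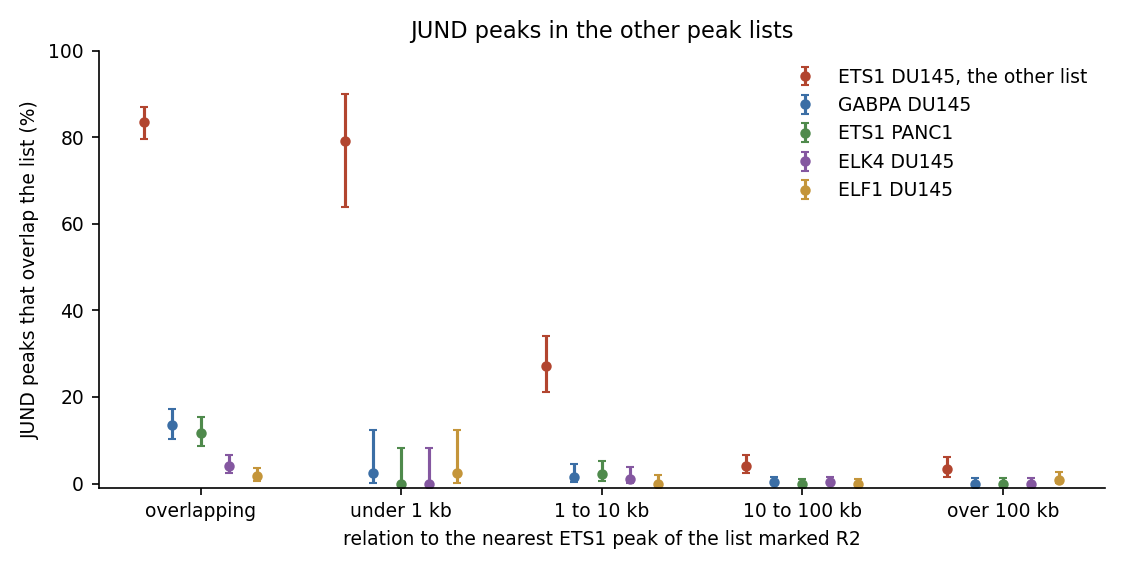
Percent of JUND peaks in each class of distance to ETS1 that overlap the other ETS1 list, GABPA, PANC1 ETS1, ELK4 or ELF1, with 95% Clopper-Pearson intervals. The other ETS1 list falls from 83.6% in the overlapping class to 3.28% beyond 100 kb, and the remaining 4 lists are highest in the overlapping class, except ELF1, whose 1 of 43 peaks under 1 kb gives 2.33% with a wide interval.

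The other lists were also counted at joint JUND and ETS1 sites along the JUND list. From the first to the last of 5 equal groups of JUND lines, the share of ETS1-overlapping peaks with GABPA was 8.26%, 10.0%, 13.2%, 16.2% and 24.2%. The share with PANC1 ETS1 was 14.7%, 17.8%, 13.2%, 5.88% and 3.03% in the same order. The head of the list (109 joint peaks) and its end (66) had intervals of 3.85 to 15.1% and 14.5 to 36.4% for GABPA, and of 8.63 to 22.7% and 0.369 to 10.5% for PANC1. For each list the intervals of the 2 ends overlap slightly. Among all JUND peaks over 1000 bp, 15.5% (10.2 to 22.2%) met a PANC1 ETS1 peak, against 2.43% (1.62 to 3.49%) of the others. A wide interval meets this list more easily as well. Peaks over 1000 bp also overlapped DU145 ETS1 more often, 55.5% against 28.01%, and the 2 were not separated.

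From the ETS1 side, GABPA was less frequent over the whole list where JUND was present. Over the whole list GABPA was at 57 of 410 ETS1 peaks with JUND (13.9%, 10.7 to 17.6%) and at 2228 of 8896 without (25.045%, 24.1 to 26.0%). In the first of 5 equal groups of ETS1 lines the shares were 29.3% (21.4 to 38.1%, 36 of 123) and 52.1% (49.7 to 54.5%). In the second they were 15.4% (7.63 to 26.5%) and 38.4% (36.2 to 40.7%). The intervals overlapped in the third group, with 11.4% (5.34 to 20.5%) and 21.1% (19.2 to 23.1%), and in the fourth, with 2.90% (0.353 to 10.1%, 2 of 69) and 10.3% (8.95 to 11.8%). In the last none of 74 ETS1 peaks with JUND met GABPA, which allows up to 4.86% by the exact interval, against 3.97% without JUND, so no difference was detectable there. PANC1 ETS1 went the other way in the first group, with 41 of 123 (33.3%, 25.1 to 42.4%) where JUND was present and 122 of 1739 (7.02%, 5.86 to 8.32%) where it was not. The first group held 41 of the 47 ETS1 peaks that met both JUND and PANC1 ETS1. In the later groups the intervals for PANC1 ETS1 with and without JUND overlapped. Its share was lower with JUND in the third group (1 of 79, 1.27%, against 2.30%) and the fourth (0 of 69, against 1.17%).

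Lists of equal length were made by keeping the first lines of R2, which was a choice made with the data seen. The first 2478 ETS1 lines met 145 JUND peaks (11.1%, 9.43 to 12.9%), and the 2478 GABPA peaks met 60 (4.59%, 3.52 to 5.87%). Against 337 ELK4 peaks the counts were 35 and 20, and against 256 ELF1 peaks 28 and 10. The first 409 ETS1 lines of DU145 met 39 JUND peaks (2.98%, 2.13 to 4.05%), and the 409 ETS1 peaks of PANC1 met 52 (3.98%, 2.98 to 5.18%). These cuts keep the head of the ETS1 list, where JUND is most frequent, and the whole of each other list. Median distances from JUND were 138 kb to the ETS1 lines and 179 kb to GABPA. They were 1818 and 1075 kb in the ELK4 comparison, 2333 and 2038 kb for ELF1, and 1228 and 2065 kb for PANC1 ETS1. In the ELK4, ELF1 and PANC1 comparisons, the list with more overlaps was thus the farther one by median distance.

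JUND peaks formed small local groups. With neighbouring centres at most 10 kb apart, 203 peaks (15.5%, 13.6 to 17.6%) fell into 94 clusters, of which 84 were pairs and the largest had 5 peaks. Every member overlapped ETS1 in 18 clusters, some members did in 36 and none did in 40. In 5 of those 40 an ETS1 peak lay within the span of the cluster but between its JUND peaks. Clustered peaks overlapped ETS1 in 76 of 203 cases (37.4%, 30.8 to 44.5%) and single peaks in 333 of 1105 (30.1%, 27.4 to 32.9%), with overlapping intervals. Seen the other way, 18.6% (14.9 to 22.7%) of peaks with ETS1 and 14.1% (11.9 to 16.6%) of peaks without were clustered, a difference of 4.46 percentage points (-1.65 to 10.8, bounds taken from the opposite ends of both intervals). Its sign turned, to -1.22 points, when contact was set by centres within 200 bp, and it was 0.37 points with clusters joined over 5 kb and 10.95 points over 50 kb. With the other ETS1 list it was 9.69 points (3.59 to 15.9), and among JUND peaks of at most 1000 bp 1.25 points. The band at 1 to 10 kb from ETS1 had the highest share in clusters, 59 of 191 peaks (30.9%, 24.4 to 38.0%), against 8.44% (5.88 to 11.6%) at 10 to 100 kb and 8.76% (5.69 to 12.8%) beyond. Under 1 kb it was 11 of 43 (25.6%, 13.5 to 41.2%), an interval that covers the value at 1 to 10 kb. The cluster rule uses the same 10 kb, so a direct neighbour of a JUND peak on ETS1 mostly falls within about 10 kb of ETS1. The contrast with the farther bands is thus partly built in.

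The 4 clusters with most JUND peaks, and the longest of 6 clusters of 3, are described here. Each of these 5 held 1 or 2 peaks on an ETS1 window and others with centres 0.558 to 8.28 kb from an ETS1 centre. But of the 6 clusters of 3, 2 had every peak on ETS1 and 1 had none. All positions are hg19 and were not assigned to genes, because the gene tables used here follow another assembly. The largest lay on chromosome 12 from 52626767 to 52643159, with 5 JUND peaks. Its first peak had its centre 234 bp from ETS1 line 431, and the other 4 had theirs 1.85 to 8.28 kb from an ETS1 centre. All 5 overlapped the longer ETS1 list, in which wide intervals cover much of the stretch. The last JUND peak there, from 52641384 to 52643159, was the widest of the cluster at 1776 bp and stopped 719 bp short of the next ETS1 window.

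A cluster of 4 JUND peaks on chromosome 19 from 13944209 to 13962664 followed 4 ETS1 windows closely. Its outer peaks overlapped ETS1 with centres 225 and 464 bp apart, the peak from 13957741 to 13958341 missed an ETS1 window by 11 bp, and the remaining one lay 1.99 kb from an ETS1 centre. The last, from 13961595 to 13962664, was JUND line 24, and the first overlapped a PANC1 ETS1 peak. On chromosome 11 from 65259228 to 65275444, 4 JUND peaks met 2 intervals of the longer ETS1 list. The one from 65266287 to 65268038 overlapped ETS1 line 67, and that from 65273962 to 65275444 was 7.89 kb from the same ETS1 centre. Both met a PANC1 ETS1 peak. On chromosome 1 from 27317781 to 27328272, 1 of 4 JUND peaks overlapped ETS1, with centres 70 bp apart. The second, JUND line 1270, lay 107 bp from an ETS1 window edge to edge. The widest, JUND line 55 from 27326760 to 27328272, had its centre 3.82 kb from an ETS1 centre. A cluster of 3 on chromosome 8 from 145010311 to 145023213 had 1 peak on ETS1, with centres 416 bp apart. Its others had centres 1.03 and 3.79 kb from an ETS1 centre.

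**Figure D5:**
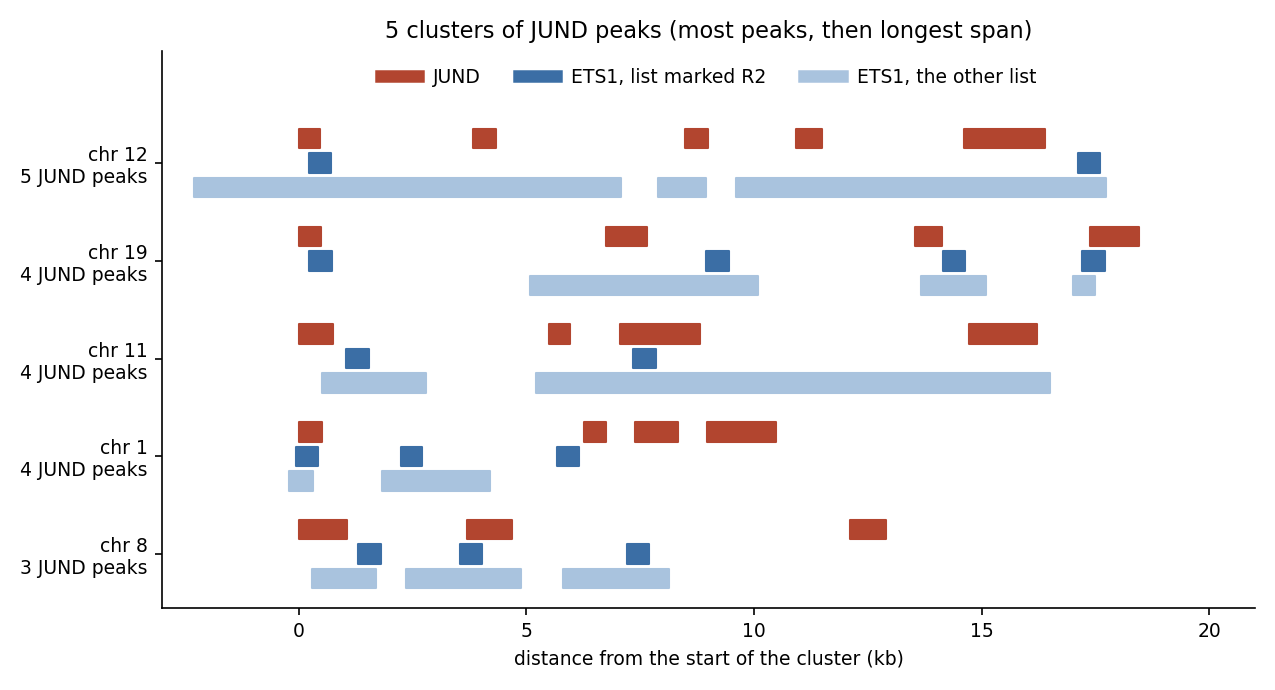
Positions in kb from the start of each of 5 clusters, the 4 with most JUND peaks and the longest of 6 with 3, with JUND peaks in red, ETS1 windows of the list marked R2 in blue and intervals of the other ETS1 list in light blue. In the chromosome 12 and chromosome 11 clusters long light blue intervals span several JUND peaks, while blue windows meet 1 JUND peak in each.

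Single loci show the range of relations. The first JUND line, on chromosome 11 from 62608436 to 62609634, was 108.5 bp from ETS1 line 4 and also met ELF1 and PANC1 ETS1. JUND line 3, on chromosome X from 77358914 to 77360198, was 52.5 bp from an ETS1 centre and met GABPA, ELK4 and ELF1. It is 1 of 4 joint peaks that met at least 4 of the other 5 lists, and 1 of just 3 JUND peaks on chromosome X, which held 120 ETS1 peaks. The peak that met every list, chosen after its values were seen, lay on chromosome 14 from 50100143 to 50101217. JUND line 5, on chromosome 11 from 65657764 to 65660010, was 185.5 bp from ETS1 line 795 and met PANC1 ETS1.

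Wide JUND peaks did not always sit on the ETS1 window. The widest, 3796 bp on chromosome 16 from 3070264 to 3074059, met ETS1 line 441 at its edge, with centres 2.00 kb apart, and a PANC1 ETS1 peak. JUND line 2, 2848 bp on chromosome 17 from 57919121 to 57921968, ended 1.07 kb before an ETS1 window and overlapped only the longer ETS1 list. Its neighbour from 57915127 to 57915640, JUND line 803, had its centre 1 bp from that of ETS1 line 113. JUND line 4, on chromosome 1 from 153538107 to 153540934, was the single peak that covered 2 ETS1 windows. The peak on chromosome 6 from 30709832 to 30712607 overlapped ETS1 line 61, with centres 865 bp apart. That on chromosome 11 from 65189241 to 65191954 overlapped ETS1 line 10, with centres 203 bp apart, and both peaks met PANC1 ETS1.

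The 5 closest pairs had JUND peaks of 480 to 579 bp and lay later in the JUND list. A tie at 2.5 bp was given to the earlier JUND line. Centres were 0.5 bp apart on chromosome 12 from 64615632 to 64616210 (JUND line 1182) and 1.5 bp apart on chromosome 1 from 16840450 to 16840939 (line 1031), where the ETS1 window ran from 16840449 to 16840943. On chromosome 8 from 48920866 to 48921345 the JUND and ETS1 intervals shared their end, with centres 2 bp apart. On chromosome 1 from 150544276 to 150544815 the distance was 2.5 bp, at ETS1 line 8619, near the end of that list. The 5 closest pairs thus came from ETS1 lines 113 to 8619 and from JUND lines 665 to 1182.

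At the far end, the JUND peak on chromosome 9 from 47196456 to 47196956 was 5242 kb from any ETS1 centre. The next were on chromosome 3 from 165360701 to 165361191 at 2092 kb, on chromosome 12 from 60660148 to 60660797 at 1994 kb and on chromosome 18 from 26744247 to 26744747 at 1937 kb. The nearest of the 5, on chromosome 17 from 69067715 to 69068615 at 1521 kb, was JUND line 162, while the other 4 stood at lines 894 to 1304. None of the 5 met any other list. Early lines far from ETS1 existed as well. JUND line 6, on chromosome 16 from 90061073 to 90062929, was 22.6 kb from ETS1, and line 8, on chromosome 8 from 128865965 to 128867240, was 115 kb away, and neither met another list. The earliest near miss was line 126 on chromosome 10 from 17270169 to 17271073, whose edge lay 73 bp from an ETS1 window.

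By chromosome, the share of JUND peaks on ETS1 ran from 14.8% (6.62 to 27.1%, 8 of 54) on chromosome 3 to 45.5% (24.4 to 67.8%, 10 of 22) on chromosome 22, among chromosomes with at least 20 JUND peaks. Chromosome 6 stood at 41.4% (29 of 70), chromosome 19 at 41.2% (28 of 68) and chromosome 1 at 38.4% (58 of 151). Chromosome 7 stood at 19.2% (10 of 52) and chromosome 5 at 20.8% (11 of 53). Median distances to ETS1 were 1.53 kb on chromosome 6 and 2.52 kb on chromosome 19. They were 41.1 kb on chromosome 3, 43.9 kb on chromosome 5 and 114.8 kb on chromosome 21, where 4 of 23 JUND peaks overlapped ETS1. The intervals of chromosomes 3 and 22 overlap. That of chromosome 3 lies below those of chromosomes 1 (30.6 to 46.7%), 6 (29.8 to 53.8%) and 19 (29.4 to 53.8%). These chromosomes were picked with their values seen, and the intervals are not adjusted for the number of chromosomes. Chromosome 19 held 8.28% of ETS1 and 5.20% of JUND peaks, whereas chromosome 14 held 4.09% of ETS1 and 6.35% of JUND peaks.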

How the data were processed

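Each deposited file is a peak list of 3 columns, and the authors' values in it are start and end positions. The build is hg19, per the labels, and Bowtie2 2.0.6 is named in the submitters' processing notes. The peak caller, threshold, use of the inputs and pooling are not stated in those sources, and the inputs were not used here. Starts are printed counted from 1.

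Overlap, distance and clusters were computed with Python 3.11.15, NumPy 2.4.6, SciPy 1.17.1 and pandas 2.3.3, and plots drawn with Matplotlib 3.10.9. Overlap needed at least 1 bp, and clusters joined centres at most 10 kb apart. These steps were tested on simulated data, and 300 of 300 intervals came out right. With 1 sample per factor, no test was made. Named loci are the first lines, the widest, the closest, the farthest, the largest clusters and the first line of each distance band, 5 of each kind where ranked. Lists of equal length, line groups and splits by other lists were added after seeing the data. The members and lists were chosen with earlier results of these data known. Motif shares and gene lists planned for these peaks were not run, since the reference tables follow another build, and no sequence is printed.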

Additional observations from a re-analysis of the deposited data

How the results depend on the processing

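Across 35 alternatives, 16 values stayed within the interval of the value as reported, 18 moved outside it and 1 changed sign. The share of JUND peaks on ETS1 (31.3%) was 28.3% with an overlap of 50% of the shorter interval, 20.5% with centres within 200 bp, 35.02% with intervals within 500 bp, 34.6% with the other ETS1 list, 26.1% with R2 peaks shared by that list, 36.7% for the wider JUND peaks, 36.5% for the earlier JUND lines and 28.01% for JUND peaks of at most 1000 bp. The last setting was chosen after seeing the data. The share of ETS1 peaks with JUND (4.41%) was 3.98%, 2.88% and 4.91% under the first 3 of these. It was 2.59%, 2.58% and 3.47% under the last 3, which keep fewer JUND peaks. The median distance was 18516 bp with shared R2 peaks, 6564.5 bp for the wider peaks and 15042 bp for those of at most 1000 bp. The cluster difference (4.46 points) was 10.95 points with 50 kb gaps, 9.69 with the other ETS1 list, 1.25 for JUND peaks of at most 1000 bp and -1.22 with centres within 200 bp. The cause was not tested where the alternative's construction does not give it. Differences in width and line kept their sign under 4 alternatives each, but the bounds included 0 in 2 of them for width and in 3 for line. The unknown depth limits every count, and a site missing from a list is not shown to be unbound. No paired analysis was possible because each factor has 1 sample and the result comes from no test.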

Other observations

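With neighbouring centres joined over 50 kb, JUND peaks formed longer groups that differed in how many peaks lay on ETS1, and the loci named here were chosen after their values were seen. The largest, on chromosome 12 from 52540818 to 52721975 (hg19), held 10 JUND peaks, of which 3 overlapped an ETS1 window and 8 the longer ETS1 list. Of 9 JUND peaks on chromosome 11 from 65149524 to 65275444, 5 overlapped an ETS1 window, all 9 met the longer list and 3 met a PANC1 ETS1 peak. On chromosome 6 from 30649683 to 30782407, 7 of 8 JUND peaks overlapped ETS1. A group of 6 on chromosome 10 from 3782305 to 3895295 had none on an ETS1 window, although 1 window lay within its span, and its JUND centres were 2.37 to 67.1 kb from ETS1. In contrast, 4 of 6 JUND peaks on chromosome 6 from 43978051 to 44026768 overlapped ETS1 and none was farther than 1.59 kb.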
